A study of Mus musculus with 6 samples.

Results

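Trem2, its signalling adaptor Tyrobp, the related adaptor Fcer1g and 3 enzymes that act downstream of such receptors, Syk, Plcg2 and Inpp5d, were followed in microglia of the mouse hippocampus. These 6 genes, of 32285 in the count matrices, were chosen by symbol with earlier results of these data in view, among them the levels of Trem2 and Tyrobp in barcodes rich in microglia markers. The differences between groups given below, in microglia, oligodendrocytes and neurons, are therefore a description of these samples. Their adjusted p-values are not an independent test of the choice.

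The samples were single-cell suspensions of hippocampal tissue from mice aged 6 months, 2 in each of 3 groups. Group 1 was 5×FAD mice given PBS (5×FAD-PBS), group 2 was 5×FAD mice given Aβ3FTnAu (5×FAD-Aβ3FTnAu), and group 3 was wild-type littermates given PBS (WT-PBS). The 5×FAD line is known to carry mutant human transgenes under the neuronal Thy1 promoter and to build up amyloid-β plaques, and the series title describes the agent as a protein and gold nanostructure meant to recognise and cleave such plaques. Dose, route, duration and sex are not given in the sources used here, nor do they say whether both samples of each group are different mice. The p-values then measure only the spread between these samples, which may be technical.

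Trem2 is a surface receptor of myeloid cells that binds lipids, lipoproteins and amyloid-β, and its own tail carries no signal. It signals through Tyrobp (also called DAP12), whose phosphorylated ITAM motif recruits the kinase Syk, and Syk in turn leads to activation of the phospholipase Plcg2. Inpp5d (also called SHIP1) is a lipid phosphatase that restrains the path, and Fcer1g is the ITAM adaptor used by Fc receptors. In mouse models with plaques, microglia that gather at plaques are known for a Trem2-dependent change of state.

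In the GENCODE vM21 annotation (GRCm38), the receptor and the adaptors are short genes. Trem2 (ENSMUSG00000023992) lies at chr17:48346401-48354147 on the plus strand and spans 7.747 kb. Tyrobp (ENSMUSG00000030579) lies at chr7:30413760-30417585 on the plus strand and spans 3.826 kb, and Fcer1g (ENSMUSG00000058715) lies at chr1:171229572-171234365 on the minus strand and spans 4.794 kb. The downstream enzymes are long genes, all on the plus strand. Syk (ENSMUSG00000021457, chr13:52583173-52648792) spans 65.62 kb, Plcg2 (ENSMUSG00000034330, chr8:117498291-117635142) spans 136.852 kb and Inpp5d (ENSMUSG00000026288, chr1:87620312-87720507) spans 100.196 kb.

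The 250 bases before the start site were searched for AGGAAG on both strands, the core read by ETS factors of the PU.1 type that are known to act in myeloid cells. The motif was chosen after the levels had been seen. RefSeq promoter sequences (GRCm38.p6) matched 5 of the 6 genes, with 6 start sites, of which 2 were of Syk, and 3 genes held 1 match each. They are shown because they held the match in both short and long genes, and capitals mark it.
Trem2, chr17:48346151-48346400, plus strand, match on the opposite strand, 41 bases before the start site: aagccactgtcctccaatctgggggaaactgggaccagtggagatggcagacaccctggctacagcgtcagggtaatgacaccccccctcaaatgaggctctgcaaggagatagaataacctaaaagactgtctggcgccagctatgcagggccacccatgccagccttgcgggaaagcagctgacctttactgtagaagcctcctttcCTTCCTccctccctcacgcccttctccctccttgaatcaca
Fcer1g, chr1:171234350-171234599, minus strand, match on the gene's own strand, 44 bases before the start site: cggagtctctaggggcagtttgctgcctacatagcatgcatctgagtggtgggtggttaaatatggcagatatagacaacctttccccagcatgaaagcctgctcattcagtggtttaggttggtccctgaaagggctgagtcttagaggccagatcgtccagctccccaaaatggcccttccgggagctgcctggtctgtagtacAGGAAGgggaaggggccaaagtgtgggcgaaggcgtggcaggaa
Inpp5d, chr1:87620062-87620311, plus strand, match on the gene's own strand, 19 bases before the start site: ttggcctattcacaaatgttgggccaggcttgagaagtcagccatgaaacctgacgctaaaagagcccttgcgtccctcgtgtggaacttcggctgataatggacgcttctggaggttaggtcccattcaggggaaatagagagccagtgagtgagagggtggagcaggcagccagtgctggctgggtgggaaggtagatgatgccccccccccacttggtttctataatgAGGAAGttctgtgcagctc
Neither start site of Syk nor that of Plcg2 held these letters in the same window. Of 32851 mouse start sites in the RefSeq table, 29.5% held the motif in their 250 bases. A match is a description of the letters and not a measured binding site.

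Microglia were set by marker UMIs (molecules counted by their unique identifier). A barcode needed at least 2 UMIs from at least 2 of Csf1r, Cx3cr1, Dock8 and Runx1, making up at least 0.1% of its UMIs and outnumbering the markers of oligodendrocytes and of neurons. This gave 340 and 574 microglia barcodes in 5×FAD-PBS, 131 and 156 in 5×FAD-Aβ3FTnAu and 266 and 120 in WT-PBS, of 50145 barcodes kept in all. Their median depth was 873 to 1170 UMIs, and the sums per sample held 121346 to 635235 UMIs. All 10 microglia markers outside the gate were detected, with a summed level of 8178 and 9090 CPM (UMIs of a gene as counts per total of the sum, scaled alike in all samples) in 5×FAD-PBS, 4532 and 4630 CPM in 5×FAD-Aβ3FTnAu, and 12016 and 6631 CPM in WT-PBS. Border macrophage markers summed to 27.7 to 167 CPM, and 4 of 6 monocyte and neutrophil markers and 4 of 6 lymphocyte markers were at 0.

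The WT-PBS samples stood apart from each other more than those of the other groups. A chi-square of the microglia counts between the 2 samples of a group came to 2.743 per degree of freedom in WT-PBS, against 1.372 in 5×FAD-PBS and 1.259 in 5×FAD-Aβ3FTnAu. Whether 1 of these libraries is mislabelled cannot be told from the sources used here. In the share of microglia barcodes with a UMI of the plaque-state genes Cst7, Lpl, Itgax, Ank or Csf1, they were alike, at 9.77% and 10.0%, against 29.0% to 65.9% in the 5×FAD samples. The results are also given without each WT-PBS sample in turn, where the lone sample left is assumed to vary like the other groups. Barcodes without any mitochondrial UMI, a mark of how much cytoplasmic RNA was captured, also differed, with 23.8% and 14.8% of microglia in 5×FAD-PBS, 68.7% and 65.4% in 5×FAD-Aβ3FTnAu and 60.9% and 29.2% in WT-PBS. The share of microglia UMIs from genes under 10 kb was 16.4% and 17.4%, 14.1% and 13%, and 16.7% and 17.6% in the same order. Whether the barcodes hold whole cells or nuclei was not tested. Between 9 and 45 kept barcodes were shared by a pair of libraries, and 0 among microglia.

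In microglia, Trem2 was high in both 5×FAD-PBS samples, low in both 5×FAD-Aβ3FTnAu samples and split in wild type. Its level was 1077 and 1020 CPM in 5×FAD-PBS, 231 and 261 CPM in 5×FAD-Aβ3FTnAu, and 854 and 139 CPM in WT-PBS samples 1 and 2. WT-PBS sample 1 thus sat near the 5×FAD-PBS samples and sample 2 below both 5×FAD-Aβ3FTnAu samples, and the group mean of 497 CPM had an SD of 506 (n = 2). These values rest on 473, 648, 28, 47, 245 and 19 UMIs. A similar pattern was present in other microglia genes. The marker C1qa was at 1592 and 1960 CPM in 5×FAD-PBS, 420 and 433 CPM in 5×FAD-Aβ3FTnAu, and 1764 and 667 CPM in WT-PBS. C1qb was at 1070 and 1162, 214 and 261, and 1098 and 396 CPM in the same order. The marker Siglech did not share it, at 581 and 598, 750 and 604, and 861 and 982 CPM.

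Tyrobp, the adaptor through which Trem2 signals, separated 5×FAD-PBS from both other groups. Its level was 485 and 468 CPM in 5×FAD-PBS, 173 and 150 CPM in 5×FAD-Aβ3FTnAu, and 216 and 147 CPM in WT-PBS. The 5×FAD-Aβ3FTnAu and WT-PBS samples overlapped, and the gap between the WT-PBS samples was far smaller than for Trem2. Trem2 gave 3.95 UMIs for each Tyrobp UMI in WT-PBS sample 1 and 0.950 in sample 2, against 2.22 and 2.18 in 5×FAD-PBS.

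Fcer1g, the other ITAM adaptor, was lowest in both 5×FAD-Aβ3FTnAu samples. Its level was 337 and 431 CPM in 5×FAD-PBS, 190 and 172 CPM in 5×FAD-Aβ3FTnAu, and 425 and 205 CPM in WT-PBS. WT-PBS sample 1 lay within the 5×FAD-PBS range, and sample 2 lay between those groups.

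The downstream enzymes varied much less between samples. Syk, the tyrosine kinase recruited to ITAM adaptors, was at 114 and 191 CPM in 5×FAD-PBS, 107 and 189 CPM in 5×FAD-Aβ3FTnAu, and 129 and 132 CPM in WT-PBS. Plcg2, which makes the second messengers of the path, was at 305 and 274, 321 and 405, and 286 and 330 CPM in the same order. Inpp5d, the restraining phosphatase, was at 1371 and 1299, 1648 and 1386, and 1269 and 1304 CPM. The highest sample exceeded the lowest 1.78-fold for Syk, 1.48-fold for Plcg2 and 1.30-fold for Inpp5d, against 7.74-fold for Trem2, 3.31-fold for Tyrobp and 2.51-fold for Fcer1g. The Syk values of all 3 groups overlapped. Both 5×FAD-Aβ3FTnAu samples lay above the 5×FAD-PBS samples for Plcg2, and above the other 4 samples for Inpp5d.

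**Figure D1:**
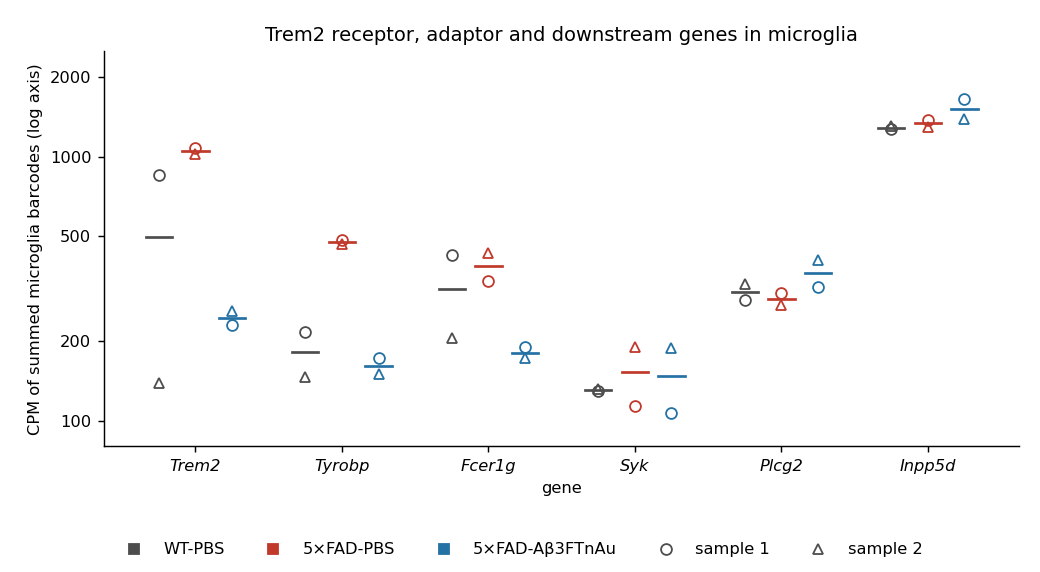
CPM of summed microglia barcodes on a log axis for the 6 genes, with 1 symbol per sample (circle for sample 1, triangle for sample 2) and a bar at the mean of each group. Trem2 in WT-PBS spreads from 139 to 854 CPM, while Inpp5d stays between 1269 and 1648 CPM in all 6 samples.

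Within a library, the level of the receptor and adaptor genes relative to the downstream genes differed between samples. The summed UMIs of Trem2, Tyrobp and Fcer1g over those of Syk, Plcg2 and Inpp5d gave a ratio of 1.06 and 1.09 in 5×FAD-PBS, 0.286 and 0.294 in 5×FAD-Aβ3FTnAu, and 0.888 and 0.278 in WT-PBS. WT-PBS sample 1 was near the 5×FAD-PBS samples and sample 2 was level with the 5×FAD-Aβ3FTnAu samples. This ratio sets short genes against long ones, and the share of UMIs from genes under 10 kb was lowest in the 5×FAD-Aβ3FTnAu libraries, while WT-PBS sample 2 had the highest share. The part of gene length in the result was not tested.

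The first comparison asks what the transgenic background changed under PBS. Against WT-PBS, Tyrobp was higher in 5×FAD-PBS by a log2 fold change of 1.31 ± 0.22 (SE), or 2.49-fold (edgeR quasi-likelihood F test, Benjamini-Hochberg adjusted p = 0.000432). Trem2 had a log2 fold change of 0.95 ± 0.36 (adjusted p = 0.116). Tyrobp was thus 1 of 6 genes past the threshold of 0.05, in a comparison where 7.96% of 5842 genes passed.

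The other 4 genes showed small differences in that comparison. The log2 fold change was 0.19 ± 0.24 for Fcer1g, 0.25 ± 0.30 for Syk, -0.08 ± 0.21 for Plcg2 and 0.04 ± 0.18 for Inpp5d, with adjusted p between 0.707 and 0.934. Without WT-PBS sample 1, Trem2 reached 2.88 (adjusted p = 8.55e-10), and without sample 2 it was 0.33 (adjusted p = 0.221). Trem2 also passed without either 5×FAD-Aβ3FTnAu sample (1.01 and 1.0, adjusted p = 5.67e-05 and 8.35e-05), with no filter on low counts (1.06, adjusted p = 4.62e-06) and with at least 1000 UMIs and 500 genes (1.22, adjusted p = 0.0137). Tyrobp was 1.67 and 1.17 without WT-PBS sample 1 and sample 2 (adjusted p = 0.00021 and 1.56e-05). In barcodes with no mitochondrial UMI, Tyrobp did not pass (0.63, adjusted p = 0.294), and in barcodes with at least 1 it was 1.85 (adjusted p = 0.000131).

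The second comparison asks what the nanostructure changed in 5×FAD mice, and it shares the 5×FAD-PBS samples with the first. Trem2 was lower in 5×FAD-Aβ3FTnAu by 2.10 ± 0.41 on the log2 scale, a 4.28-fold difference (log2 fold change -2.10, adjusted p = 0.0121). Tyrobp was lower by 3.01-fold (log2 fold change -1.59 ± 0.24, adjusted p = 0.000693). Both genes were lower in each 5×FAD-Aβ3FTnAu sample than in either 5×FAD-PBS sample, and they were 2 of 6 genes past the threshold, in a comparison where 1.32% of 5842 genes passed.

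Fcer1g pointed the same way without passing (log2 fold change -1.12 ± 0.28, adjusted p = 0.0536). It passed without 5×FAD-PBS sample 1 (-1.28), without 5×FAD-Aβ3FTnAu sample 1 (-1.17), and without WT-PBS sample 1 or sample 2 (-1.14 both times). It also passed with at least 1000 UMIs (-1.90, adjusted p = 0.00304), in the Leiden cluster (-1.91, adjusted p = 0.0276), with only these 2 groups in the fit (adjusted p = 0.0112) and with no filter on low counts (adjusted p = 0.000345), and not in the other 10 of 18 alternatives. Syk, Plcg2 and Inpp5d had log2 fold changes of -0.03 ± 0.31, 0.33 ± 0.21 and 0.17 ± 0.18 (adjusted p = 0.986, 0.574 and 0.798). For Trem2 and Tyrobp, leaving out any of the 6 samples kept the call. Trem2 did not pass with DESeq2 (adjusted p = 0.787), and Tyrobp did (adjusted p = 0.0114).

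The lower Trem2 was present in barcodes of both mitochondrial kinds. Among barcodes with no mitochondrial UMI, Trem2 was at 993 and 862 CPM in 5×FAD-PBS, 236 and 271 CPM in 5×FAD-Aβ3FTnAu, and 815 and 137 CPM in WT-PBS. Among barcodes with at least 1, it was at 1102 and 1046, 220 and 245, and 912 and 140 CPM. The order of the samples and the gap between the WT-PBS samples were the same in both kinds of barcode. Fitted within each kind, the log2 fold change of Trem2 for 5×FAD-Aβ3FTnAu against 5×FAD-PBS was -1.87 (adjusted p = 0.00641) and -2.25 (adjusted p = 0.0326).

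Set against WT-PBS, 5×FAD-Aβ3FTnAu microglia showed 0 of 6 genes past the threshold in edgeR, in a comparison where 6.15% of 5842 genes passed. The log2 fold change was -1.15 ± 0.44 for Trem2 (adjusted p = 0.129), -0.27 ± 0.28 for Tyrobp (adjusted p = 0.657) and -0.93 ± 0.31 for Fcer1g (adjusted p = 0.0756). Unadjusted, p was 0.0155 for Trem2 and 0.00647 for Fcer1g, and none of the 3 passed with DESeq2. The direction of Trem2 changed with the WT-PBS sample used. Without WT-PBS sample 1, Trem2 was at 0.78 (adjusted p = 0.312) and Fcer1g at -0.24 (adjusted p = 0.81). Without sample 2, Trem2 was at -1.78 (adjusted p = 1.51e-13) and Fcer1g at -1.24 (adjusted p = 0.000126). Leaving out either 5×FAD-PBS or either 5×FAD-Aβ3FTnAu sample also brought Trem2 past the threshold, at -1.0 to -1.20, as did no filter on low counts (-1.17, adjusted p = 9.46e-05) and barcodes with no mitochondrial UMI (-1.29, adjusted p = 0.0395). Fcer1g passed in 5 of 18 alternatives, among them at least 1000 UMIs (-1.58, adjusted p = 0.019) and the Leiden cluster (-1.65, adjusted p = 0.0483).

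**Figure D2:**
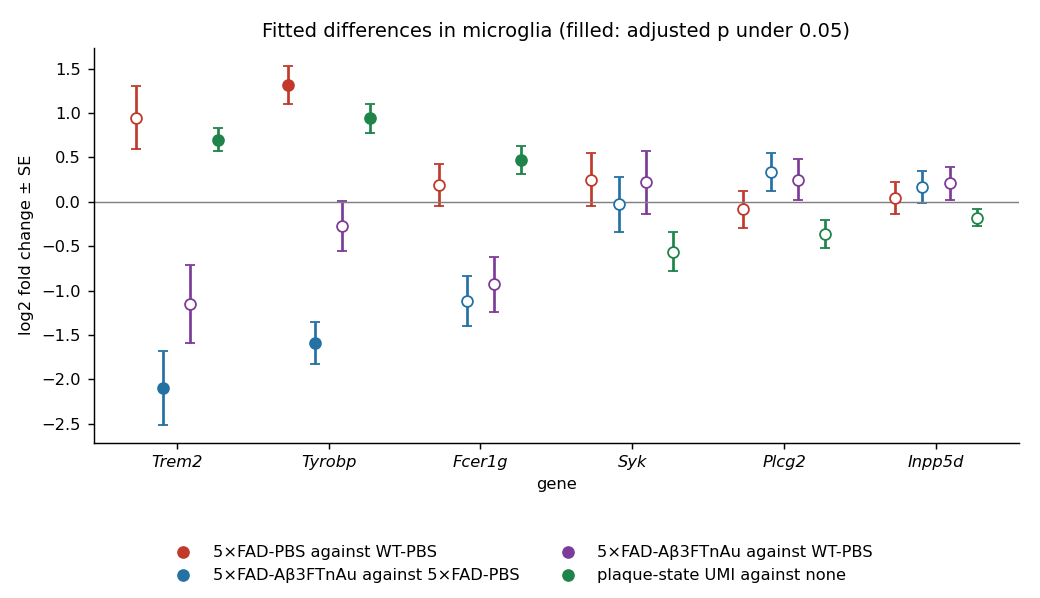
Fitted log2 fold change with its SE for each gene in the 3 comparisons between groups and in the comparison of microglia barcodes with and without plaque-state UMIs, with filled points where adjusted p is under 0.05. Trem2 and Tyrobp have filled points for 5×FAD-Aβ3FTnAu against 5×FAD-PBS, at -2.10 and -1.59, and Syk, Plcg2 and Inpp5d have none.

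A further comparison was made inside the 5×FAD libraries. The genes and the plaque-state list were chosen with earlier results of these data known, so its adjusted p-values are not an independent test. Microglia barcodes with at least 1 UMI of Cst7, Lpl, Itgax, Ank or Csf1, genes known to rise in microglia at plaques, were set against those with none. Such barcodes made up 65.9% and 48.3% of microglia in 5×FAD-PBS, 29.0% and 44.2% in 5×FAD-Aβ3FTnAu, and 9.77% and 10.0% in WT-PBS. The sample entered the fit as a block, and each of the 4 samples gave 1 sum with and 1 sum without such a UMI. Barcodes with a plaque-state UMI were also deeper, with medians of 938 to 1272 UMIs against 813 to 1045.

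The receptor and both adaptors rose with plaque-state UMIs. Tyrobp was higher by a log2 fold change of 0.94 ± 0.16 (adjusted p = 1.41e-05), Trem2 by 0.70 ± 0.13 (adjusted p = 3.47e-05) and Fcer1g by 0.47 ± 0.16 (adjusted p = 0.0419). These are 3 of 6 genes, in a comparison where 11.8% of 2529 genes passed. Syk, Plcg2 and Inpp5d had log2 fold changes of -0.56 ± 0.22, -0.36 ± 0.16 and -0.18 ± 0.10 and did not pass (adjusted p = 0.0936, 0.139 and 0.283).

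Sample by sample, Trem2 stood at 1228 and 1273 CPM with a plaque-state UMI against 710 and 731 CPM without in 5×FAD-PBS. In 5×FAD-Aβ3FTnAu it stood at 222 and 276 CPM against 235 and 245 CPM. The log2 ratio was 0.79 and 0.80 in the first group and -0.08 and 0.17 in the second; the difference between the groups was not tested, and the latter values rest on 9 and 25 UMIs with the state. Tyrobp was higher with a plaque-state UMI in all 4 samples, with log2 ratios of 0.75 and 0.99 in 5×FAD-PBS and 1.70 and 0.75 in 5×FAD-Aβ3FTnAu. Syk and Plcg2 were lower with a plaque-state UMI in all 4 samples, at -0.50 to -0.74 for Syk and -0.17 to -0.49 for Plcg2. In the WT-PBS samples, which were not in the fit, the log2 ratio of Trem2 was -0.43 and -0.50. These ratios rest on 19 and 2 Trem2 UMIs with the state.

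Among barcodes without a plaque-state UMI, the gap between the groups was also present, as values with no test. Trem2 was at 710 and 731 CPM in 5×FAD-PBS and at 235 and 245 CPM in 5×FAD-Aβ3FTnAu, and Tyrobp was at 328 and 307 CPM against 98.9 and 112 CPM. In the fit of barcodes with a plaque-state UMI against those with none, the call for Trem2 was lost in 2 alternatives. These were leaving out 5×FAD-PBS sample 2 (0.58, adjusted p = 0.0526) and DESeq2 (adjusted p = 0.205). The call for Fcer1g in that fit was lost in 9 of 10 alternatives, with adjusted p up to 0.748. With every barcode thinned to 500 UMIs, Tyrobp (0.72, adjusted p = 0.0317) and Trem2 (0.60, adjusted p = 0.0159) still passed, and Fcer1g (0.33, adjusted p = 0.518) did not.

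**Figure D3:**
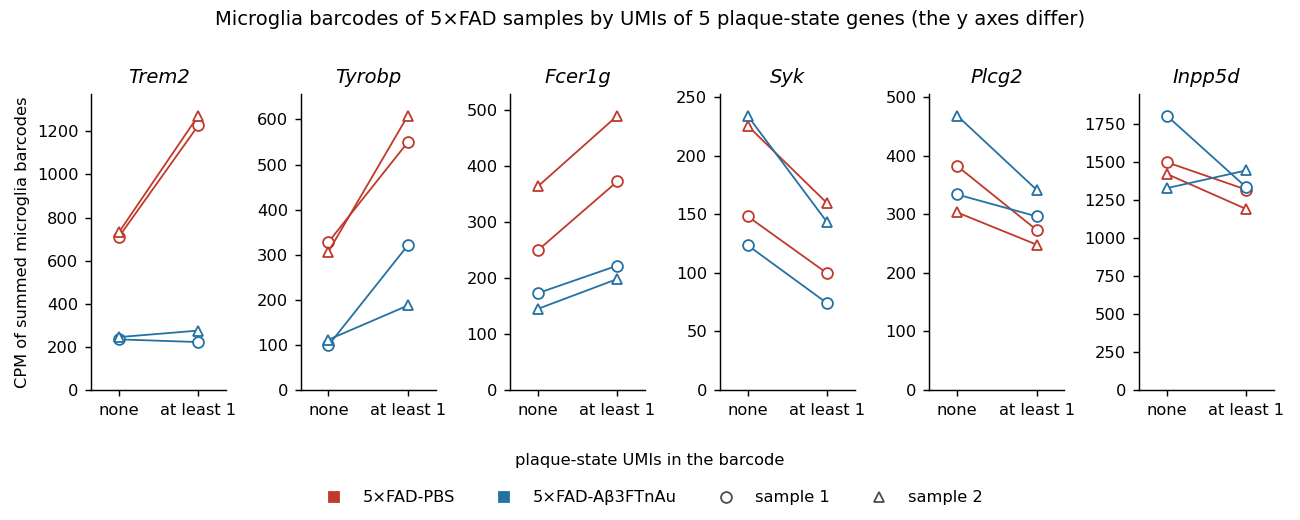
CPM of the 6 genes in microglia barcodes with no plaque-state UMI and with at least 1, with a line for each of the 4 5×FAD samples and a y axis per gene. Trem2 climbs in the 5×FAD-PBS lines (710 to 1228 and 731 to 1273 CPM) and is nearly level in the 5×FAD-Aβ3FTnAu lines, while Syk and Plcg2 slope down in all 4.

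Shares of barcodes with a UMI were compared with each barcode thinned to 500 UMIs, with exact Clopper-Pearson 95% intervals that cover counting error only. Trem2 was found in 36.8% (31.6 to 42.1) and 36.2% (32.3 to 40.3) of microglia barcodes in 5×FAD-PBS. It was found in 14.5% (8.96 to 21.7) and 12.8% (8.01 to 19.1) in 5×FAD-Aβ3FTnAu. In WT-PBS it was found in 36.1% (30.3 to 42.2) of sample 1 and 9.17% (4.67 to 15.8) of sample 2. The shares thus gave the same split of the WT-PBS samples as the summed levels. Without thinning they were 60.6% and 58.7%, 19.1% and 24.4%, and 56.4% and 15%.

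Tyrobp was found in 18.2% and 19.7% of thinned microglia barcodes in 5×FAD-PBS, 9.16% and 8.97% in 5×FAD-Aβ3FTnAu, and 12.4% and 6.67% in WT-PBS. Fcer1g was found in 15.9% and 17.8%, 9.92% and 9.62%, and 17.7% and 11.7%. Inpp5d was found in 47.6% to 57.3% of microglia barcodes of every sample, Plcg2 in 10.9% to 21.2% and Syk in 4.41% to 10.9%. The 2 genes of the receptor complex were both seen, at full depth, in 94 of 340 and 129 of 574 barcodes of 5×FAD-PBS. Both were seen in 4 of 131 and 7 of 156 barcodes of 5×FAD-Aβ3FTnAu, and in 33 of 266 and 4 of 120 of WT-PBS. Barcodes with no UMI of any of the 6 genes made up 4.71% to 9.92% of microglia in a sample.

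Oligodendrocytes and neurons were taken as the background, and whether these cells lack the genes was not tested. Summed Plcg2 was higher in neurons than in oligodendrocytes in every sample but WT-PBS sample 2 (8.29 against 8.54 CPM). Thinned to the same depth, Trem2 was found in 0.826% to 3.51% of oligodendrocyte barcodes and 0.351% to 1.25% of neuron barcodes, and Tyrobp in 0.186% to 2.99% and 0.162% to 0.911%. Median depths were 874 to 1409 UMIs in oligodendrocytes and 4724 to 6445 in neurons. Each microglia share of Trem2, Tyrobp, Fcer1g, Syk, Plcg2 and Inpp5d was above the share of the same sample in both other classes. Syk was found in 0 of 569 and 0 of 641 oligodendrocyte barcodes of 5×FAD-PBS sample 1 and 5×FAD-Aβ3FTnAu sample 2, which allows a share of up to 0.527% and 0.468% by the limit of 3 counts of the total (exact upper bounds of 0.646% and 0.574%).

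**Figure D4:**
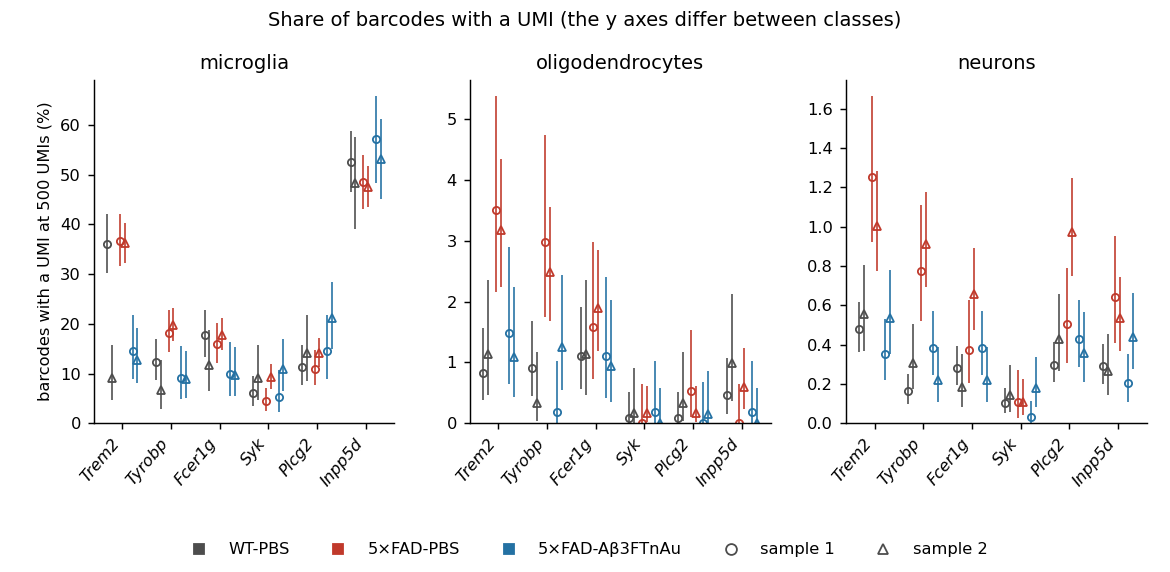
Share of barcodes with a UMI of each gene after thinning to 500 UMIs, per sample with 95% Clopper-Pearson intervals, in microglia, oligodendrocytes and neurons on separate y axes. Inpp5d has the highest microglia shares (47.6% to 57.3%), and the oligodendrocyte and neuron shares of all 6 genes stay at or below 3.51%.

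The summed levels gave the same contrast between classes. Microglia exceeded oligodendrocytes by 6.71- to 46.5-fold for Trem2, 8.86- to 15.5-fold for Tyrobp and 5.87- to 32.1-fold for Fcer1g over the 6 samples. Against oligodendrocytes the downstream genes had higher ratios at the median. The ratio was 38.2- to 107-fold for Plcg2 and 41.1- to 1095-fold for Inpp5d. The highest Inpp5d value rests on 1 oligodendrocyte UMI in 5×FAD-Aβ3FTnAu sample 2. For Syk the ratio was 19.9- to 99.8-fold over the 5 samples with a Syk UMI in oligodendrocytes. The oligodendrocyte sums held 0 to 7 Syk UMIs and 3 to 8 Plcg2 UMIs per sample. Over neurons, microglia were higher by 27.2- to 102-fold for Trem2, 28.9- to 75.2-fold for Tyrobp, 34.3- to 70.2-fold for Fcer1g, 43.6- to 66.1-fold for Syk, 18.2- to 58.9-fold for Plcg2 and 94.7- to 214-fold for Inpp5d.

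**Figure D5:**
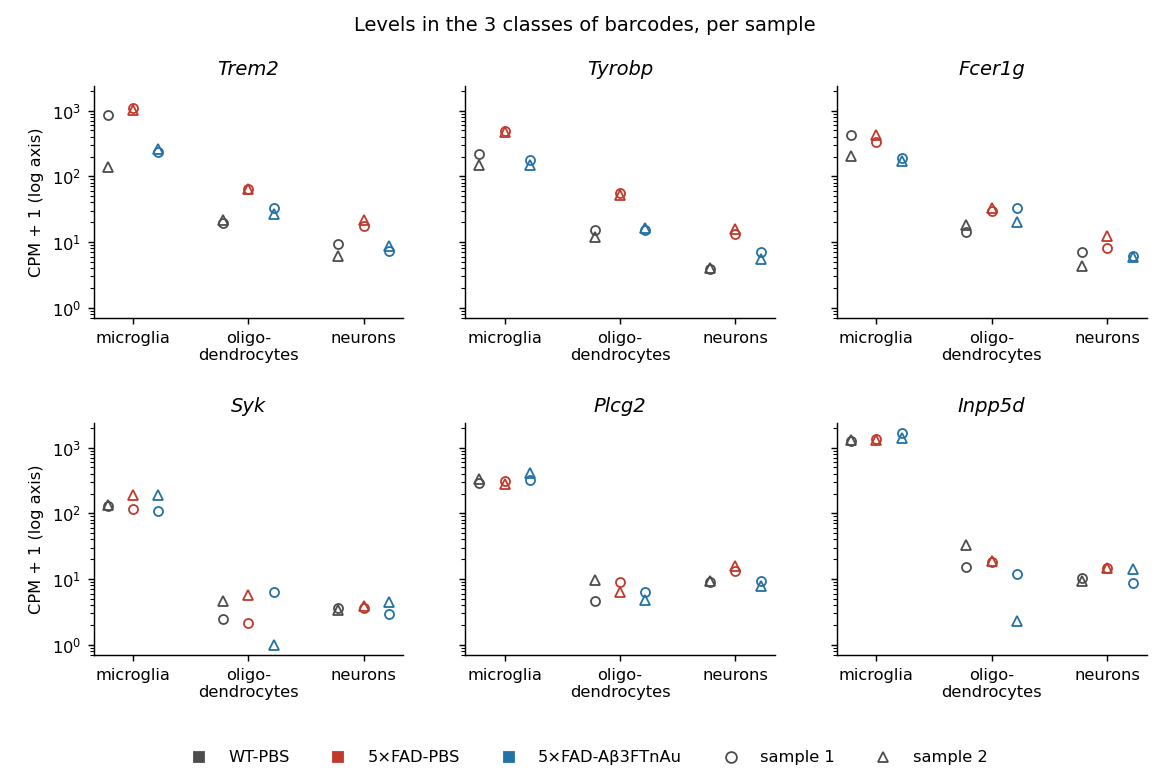
CPM + 1 on a log axis for each gene in microglia, oligodendrocytes and neurons, 1 symbol per sample. All 6 genes are highest in microglia in all samples, and Trem2 and Tyrobp in oligodendrocytes and neurons are highest in the 5×FAD-PBS samples.

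The background of Trem2 and Tyrobp itself differed between groups. So did the share of microglia among kept barcodes. It was 6.58% and 6.36% in 5×FAD-PBS, 1.60% and 2.37% in 5×FAD-Aβ3FTnAu, and 1.77% and 1.94% in WT-PBS. The part of this share in the background was not tested. In oligodendrocyte barcodes Trem2 was at 63.9 and 63.5 CPM in 5×FAD-PBS, 32.3 and 25.3 CPM in 5×FAD-Aβ3FTnAu, and 18.4 and 20.7 CPM in WT-PBS. Tyrobp was at a mean of 53.2 ± 2.22 CPM in 5×FAD-PBS, 14.8 ± 0.601 CPM in 5×FAD-Aβ3FTnAu and 12.5 ± 2.11 CPM in WT-PBS (SD, n = 2 each). The 5×FAD-PBS samples were thus the highest of all for both genes, and WT-PBS sample 1 was not high here for Trem2. In 5×FAD-PBS against WT-PBS, the log2 fold change in oligodendrocytes was 2.13 ± 0.30 for Tyrobp (adjusted p = 0.0142) and 1.79 ± 0.27 for Trem2 (adjusted p = 0.0195), 2 of the 4 genes tested, in a comparison where 0.289% of 9688 genes passed.

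Fcer1g (1.12 ± 0.35, adjusted p = 0.202) and Inpp5d (-0.23 ± 0.50, adjusted p = 0.882) did not pass there, and Syk and Plcg2 were too low to be tested. Both calls were lost without either 5×FAD-PBS or either 5×FAD-Aβ3FTnAu sample, at log2 fold changes of 1.78 to 1.82 for Trem2 and 2.09 to 2.20 for Tyrobp, and with only these 2 groups in the fit (adjusted p = 0.0905 and 0.0795). That of Trem2 was also lost with DESeq2 (adjusted p = 0.0567) and in barcodes with no mitochondrial UMI (1.23, adjusted p = 0.293), 7 of 15 alternatives in all, against 5 of 14 for Tyrobp. Against 5×FAD-PBS, 5×FAD-Aβ3FTnAu oligodendrocytes had log2 fold changes of -1.87 ± 0.32 for Tyrobp (adjusted p = 0.0695) and -1.20 ± 0.27 for Trem2 (adjusted p = 0.199), and 0 of 4 genes passed with edgeR or DESeq2, where 0.0206% of 9688 genes passed. Both had an unadjusted p under the threshold (6.46e-05 and 0.000743), and both passed without WT-PBS sample 1 or sample 2 (adjusted p = 4.45e-05 and 0.000266 for Tyrobp, 0.00237 and 0.0061 for Trem2).

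For both genes, neurons also had their highest levels in 5×FAD-PBS, as values with no test. Trem2 was at 18.5 ± 2.68 CPM in 5×FAD-PBS, 6.94 ± 0.877 CPM in 5×FAD-Aβ3FTnAu and 6.73 ± 2.27 CPM in WT-PBS, and Tyrobp at 13.4 ± 1.88, 5.24 ± 1.07 and 2.91 ± 0.0543 CPM (SD, n = 2 each). Trem2 overlapped between the last 2 groups, at 6.32 and 7.56 CPM in 5×FAD-Aβ3FTnAu and 8.34 and 5.12 CPM in WT-PBS samples 1 and 2. Per 100 UMIs of the 10 microglia markers outside the gate, 5×FAD-PBS oligodendrocyte barcodes held 13 and 13.8 Trem2 UMIs and microglia held 13.2 and 11.2. For Tyrobp the same ratio was 11.1 and 11.2 in oligodendrocyte barcodes and 5.93 and 5.14 in microglia. The Trem2 ratio of the 2 classes was thus alike in these libraries and the Tyrobp ratio was not. In WT-PBS, Trem2 gave 5.00 and 4.08 per 100 marker UMIs in oligodendrocyte barcodes against 7.11 and 2.10 in microglia. In 5×FAD-Aβ3FTnAu it gave 9.33 and 7.25 against 5.09 and 5.63. On this scale Fcer1g in microglia was at 4.18 and 3.71 in 5×FAD-Aβ3FTnAu and at 4.12 and 4.75 in 5×FAD-PBS, a smaller gap than in CPM. Tyrobp in microglia was at 3.82 and 3.23 against 5.93 and 5.14, and the gaps of Trem2 and Tyrobp were also smaller than in CPM. Inpp5d in microglia was at 36.4 and 29.9 against 16.8 and 14.3, a larger gap than in CPM. The size of each gap thus depends on the scale, and the markers themselves were lower in 5×FAD-Aβ3FTnAu microglia. Plcg2 gave 4.65 and 5.12 per 100 marker UMIs in neuron barcodes of 5×FAD-PBS against 3.73 and 3.01 in microglia. It gave 4.45 and 3.53 against 2.38 and 4.97 in WT-PBS, and 3.15 and 2.45 against 7.09 and 8.74 in 5×FAD-Aβ3FTnAu. Free RNA, microglial fragments and the cells themselves as sources of the UMIs in oligodendrocyte and neuron barcodes were not tested.

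Of 82 further genes of the path, listed by role, 81 were in the matrices and 52 were tested in microglia. In 5×FAD-PBS against WT-PBS, 6 of them rose and 1 fell, or 7 of 52 where 7.96% of all genes passed, with a median log2 fold change of 0.11 against 0.00 over all genes tested. In 5×FAD-Aβ3FTnAu against 5×FAD-PBS, 0 rose and 1 fell, where 1.32% of all genes passed, with a median of 0.03. With plaque-state UMIs, 40 were tested, 5 rose and 3 fell, where 11.8% of all genes passed, with a median of -0.17.

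Apoe, a lipoprotein ligand of Trem2, moved most by adjusted p. It stood at 4425 and 4483 CPM in 5×FAD-PBS microglia, 1368 and 959 CPM in 5×FAD-Aβ3FTnAu and 1203 and 645 CPM in WT-PBS. It rose in 5×FAD-PBS against WT-PBS (log2 fold change 2.24 ± 0.24, adjusted p = 3.58e-06) and fell in 5×FAD-Aβ3FTnAu against 5×FAD-PBS (-1.96 ± 0.24, adjusted p = 7.46e-05). The 5×FAD-PBS samples did not overlap the other groups. The second call was lost in 1 of 18 alternatives, the Leiden cluster (adjusted p = 0.0525). Apoe was also at 1065 and 1472 CPM in oligodendrocyte barcodes of 5×FAD-PBS, 430 and 325 CPM in 5×FAD-Aβ3FTnAu and 1504 and 819 CPM in WT-PBS. There it fell in 5×FAD-Aβ3FTnAu against 5×FAD-PBS too (log2 fold change -1.79 ± 0.25, adjusted p = 0.036), a call lost without either sample of these groups. In 5×FAD-PBS against WT-PBS its log2 fold change in these barcodes was 0.21 ± 0.24 (adjusted p = 0.742).

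Among receptors and adaptors, Siglech, a receptor of resting microglia that pairs with Tyrobp, fell in 5×FAD-PBS against WT-PBS from 922 ± 85.3 to 589 ± 12.4 CPM (log2 fold change -0.65 ± 0.18, adjusted p = 0.0318), a call lost in 8 of 18 alternatives. It also fell with plaque-state UMIs (-0.81 ± 0.13), in all 10 alternatives. Sh3bp2, an adaptor that binds Syk and Plcg2, rose from 49.9 ± 8.36 to 159 ± 17.2 CPM (1.59 ± 0.33, adjusted p = 0.00302). Pik3ap1, an adaptor to phosphoinositide 3-kinase, passed with plaque-state UMIs alone of the 4 comparisons, where it fell (-0.55 ± 0.16, adjusted p = 0.017), a call lost in 7 of 10 alternatives.

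Among kinases, Tec, a kinase that can phosphorylate phospholipase C gamma, rose in 5×FAD-PBS from 126 ± 23.4 to 306 ± 5.13 CPM (1.22 ± 0.25, adjusted p = 0.00297) and was at 298 ± 95.6 CPM in 5×FAD-Aβ3FTnAu. The Src-family kinase Fgr rose too (adjusted p = 0.0101), from 1 UMI over the WT-PBS group to 44.0 ± 2.15 CPM, a ratio of pooled CPM of 18.5 (exact 95% counting interval 3.17 to 747). With 0 and 7.33 CPM in WT-PBS, Fgr passed the filter on low counts only through 5×FAD samples. Its adjusted p-values against WT-PBS, here and below, are therefore a description and not support for a rise. The Src-family kinase Lyn, which phosphorylates ITAMs, had a log2 fold change of -0.31 ± 0.19 (adjusted p = 0.385). Lyn fell with plaque-state UMIs (-0.41 ± 0.11, adjusted p = 0.00671), a call lost in 4 of 10 alternatives. Btk, a relative of Tec, had -0.17 ± 0.24 (adjusted p = 0.74).

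Among exchange factors and effectors, Dgkz, a diacylglycerol kinase, rose in 5×FAD-PBS against WT-PBS from 114 ± 16.2 to 261 ± 7.77 CPM (1.14 ± 0.24, adjusted p = 0.0043). Rasgrp3, a Ras activator that binds diacylglycerol, rose from 590 ± 25.7 to 946 ± 151 CPM (0.67 ± 0.19, adjusted p = 0.0324), a call lost in 10 of 18 alternatives. The calls of Sh3bp2, Tec and Dgkz were each lost in 2 of 18, with DESeq2 and in barcodes with no mitochondrial UMI, and that of Fgr in 4 of 12. Vav1, an exchange factor downstream of Syk, had -0.08 ± 0.24 (adjusted p = 0.9). The inhibitor Ptpn6, a phosphatase, had 0.15 ± 0.42 (adjusted p = 0.899), and Adam10 and Adam17, proteases that shed the Trem2 ectodomain, had -0.35 ± 0.25 and -0.21 ± 0.23 (adjusted p = 0.47 and 0.665).

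Besides Apoe, none of the genes that rose passed between the 2 groups of 5×FAD mice. Between 5×FAD-Aβ3FTnAu and 5×FAD-PBS, the log2 fold change was -0.21 ± 0.29 for Sh3bp2, -0.02 ± 0.23 for Tec, -0.12 ± 0.23 for Dgkz and 0.41 ± 0.50 for Fgr, with adjusted p between 0.825 and 0.988, and -0.44 ± 0.19 for Rasgrp3 (adjusted p = 0.343). Against WT-PBS, Sh3bp2, Tec, Dgkz and Fgr were higher in 5×FAD-Aβ3FTnAu, with log2 fold changes of 1.38 ± 0.39, 1.20 ± 0.28 and 1.02 ± 0.28 for Sh3bp2, Tec and Dgkz (adjusted p = 0.0375, 0.0136 and 0.0362) and an adjusted p of 0.0127 for Fgr. These calls were lost in 12, 6 and 11 of 18 alternatives and, for Fgr, 2 of 10. Rasgrp3 did not pass there (0.23 ± 0.21, adjusted p = 0.594). With plaque-state UMIs, Sh3bp2, Tec, Dgkz and Rasgrp3 also rose (1.13 ± 0.25, 0.49 ± 0.16, 0.90 ± 0.19 and 0.51 ± 0.11), calls lost in 3 of 9 alternatives for Sh3bp2, 8 of 10 for Tec and 2 of 10 each for Dgkz and Rasgrp3.

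Across the 18 sums (6 samples in 3 classes), genes most like each of the 6 were listed by the Pearson correlation of log2(CPM + 10) among 4346 genes, as a description in which the points share libraries and class. For Trem2 they were the lysosomal protease gene Ctsd (r = 0.989), Tyrobp (r = 0.982) and the lysosomal glycoprotein gene Cd68 (r = 0.982). For Tyrobp they were Ctsz (r = 0.989), Trem2 (r = 0.982) and Ctsd (r = 0.974), and for Fcer1g Ctss (r = 0.994) and Itgb5 (r = 0.986). The downstream genes had other neighbours. Syk was nearest to Gm40645, Havcr2 and Il1rl2 (r = 0.994, 0.994 and 0.993), Plcg2 to Il6ra, Fam102b and Lcp2 (r = 0.995, 0.995 and 0.994), and Inpp5d to Fli1, Nckap1l and Mertk (r = 0.998, 0.998 and 0.997).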

How the data were processed

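The deposited files hold raw UMI counts per gene and barcode. Per the file headers they were written by Cell Ranger 7.1.0, and the submitters' processing notes name mm10 and Seurat 4.3.0.1. The labels' protocols name 10x Genomics Chromium 3′ v3.1 chemistry. Each sample held 5196 to 14993 barcodes and 32528417 to 76780861 UMIs. Intron counting and the strand setting are not given in the sources used here.

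Members and lists were chosen with earlier results of these data known. A minimum of 500 UMIs and a maximum of 15% mitochondrial UMIs left 50145 of 50224 barcodes. The class gates used the 4 microglia genes, 5 oligodendrocyte genes (Mog, Mag, Opalin, Ermn, Cldn11) and 6 neuron genes (Snap25, Syt1, Rbfox3, Stmn2, Slc17a7, Gad1). Doublets stayed in, since Scrublet (scanpy 1.11.5) marked 0% to 8.84% of barcodes per sample by its automatic threshold; removing the highest scores was an alternative.

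Summed UMIs of each class and sample entered edgeR 4.0.16 in R 4.3.3 (TMM, filterByExpr, quasi-likelihood F test, Benjamini-Hochberg over all genes tested), with the 6 samples in 1 fit. The SE was taken as the size of the log2 fold change divided by the square root of F. Named genes were the 6 members, the 3 genes most like each, up to 12 path genes that passed in microglia by smallest adjusted p, and always 8 path genes. Some genes that this rule names are not reported here. Of 6 planned plaque-state genes, 5 were used, and 1 is not analysed here. On simulated counts of 5842 genes, 5×FAD-Aβ3FTnAu against 5×FAD-PBS recovered 41% of 2-fold and 75% of 4-fold changes with 10 false calls. Alternatives were DESeq2 1.42.0, RLE size factors, no filter, a replicate block, only the groups compared, each sample left out, and other gates, depths and clusters.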

Additional observations from a re-analysis of the deposited data

How the results depend on the processing

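Depth limits these results: 5×FAD-Aβ3FTnAu and WT-PBS sample 2 rest on 120 to 156 microglia barcodes, and on 19 to 47 Trem2 UMIs. Of the log2 fold changes of named genes under all alternatives, 722 kept direction and side of the threshold, 35 came to pass, 111 no longer passed (25 of the 6 genes and 86 of path genes) and 33 changed sign. None of the results that changed sign had passed as reported. Trem2 and Tyrobp in 5×FAD-Aβ3FTnAu against 5×FAD-PBS ranged from -2.28 to -1.87 and from -1.72 to -1.29 over 18 alternatives, and of these alternatives DESeq2 alone lost a call, that of Trem2. The causes of the changes below were not tested.

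Counts of genes past the threshold, in the order 5×FAD-PBS against WT-PBS, 5×FAD-Aβ3FTnAu against 5×FAD-PBS and 5×FAD-Aβ3FTnAu against WT-PBS, were 465, 77 and 359 in microglia, and 28 and 2 in oligodendrocytes for the first and second. With DESeq2 they were 134, 23 and 94, with 13 and 4 in oligodendrocytes. With no filter on low counts, the second was 177 in microglia, and oligodendrocytes gave 399 and 139. With only the groups compared in the fit, the second and last were 147 and 105, with 3 and 231 in oligodendrocytes. In barcodes with no mitochondrial UMI they were 150, 17 and 181, with 7 and 1 in oligodendrocytes, and in barcodes with at least 1 they were 267, 51 and 101, with 14 for the first in oligodendrocytes. A gate without Cx3cr1 gave 248, 44 and 172, and the Leiden cluster led by microglia markers 257, 24 and 135. Leaving out each sample in turn gave 203 to 878 for the first, 50 to 294 for the second and 125 to 791 for the last in microglia, and 2 to 1537 and 0 to 318 in oligodendrocytes. In microglia the count moved over 1.5 times without 5×FAD-PBS sample 1 (203) or 2 (293) and WT-PBS sample 1 (276) or 2 (878) for the first, without 5×FAD-PBS sample 2 (50) and WT-PBS sample 1 (229) or 2 (294) for the second, and without 5×FAD-Aβ3FTnAu sample 2 (231) and WT-PBS sample 1 (125) or 2 (791) for the last. In oligodendrocytes each sample moved it, to 68 and 1537 for the first and 318 and 268 for the second without WT-PBS samples 1 and 2, and to 4 or fewer without any other sample. The plaque-state comparison had 299 genes, 85 with DESeq2, 179 with at least 1000 UMIs and 500 genes, 88 thinned to 500 UMIs, 161 in barcodes with at least 1 mitochondrial UMI, and 126 to 345 with each sample left out (164 and 126 without 5×FAD-PBS samples 1 and 2).

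Samples of the same number did not deviate together (correlations of -0.0238, -0.0378 and -0.000193 over 5842 genes). Counting error in sums of this depth can hide a shared deviation, so these values cannot show whether the numbers pair the samples. With a replicate block the counts were 323, 36 and 183 in microglia and 12 and 2 in oligodendrocytes, and no call of the 6 genes changed.

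Log2 fold changes that changed sign are given with the lowest and highest value over the samples left out in turn. In microglia of 5×FAD-PBS against WT-PBS, Fcer1g ranged from -0.10 (without WT-PBS sample 2) to 0.89, and was at -0.34 in barcodes with no mitochondrial UMI. Syk ranged from -0.18 (without 5×FAD-PBS sample 2) to 0.54, and was at -0.10 in the Leiden cluster. Plcg2 ranged from -0.22 to 0.046, and was at 0.036 with no filter and 0.033 with no mitochondrial UMI. Inpp5d was at -0.062 with the gate without Cx3cr1 and -0.15 in the Leiden cluster. Btk was at 0.17 with no mitochondrial UMI, and Adam10 ranged from -0.66 to 0.40 (without WT-PBS sample 1). Vav1 ranged from -0.16 to 0.14, and was at 0.035 with no filter, 0.13 with at least 1000 UMIs, 0.057 with at least 3 marker UMIs and 0.13 with the gate without Cx3cr1. In 5×FAD-Aβ3FTnAu against 5×FAD-PBS, Syk ranged from -0.55 to 0.40, and was at 0.29 with at least 1 mitochondrial UMI and 0.015 with the gate without Cx3cr1, while Inpp5d was at -0.023 with at least 1 mitochondrial UMI. In 5×FAD-Aβ3FTnAu against WT-PBS, Trem2 ranged from -1.78 (without WT-PBS sample 2) to 0.78 (without sample 1), and Tyrobp from -0.43 to 0.071, with 0.56 in barcodes with at least 1 mitochondrial UMI. Syk ranged from -0.27 to 0.57, and was at -0.28 with no mitochondrial UMI and -0.59 in the Leiden cluster, where Plcg2 was at -0.32. Inpp5d was at -0.022 with the gate without Cx3cr1. In oligodendrocytes, Inpp5d ranged from -0.81 to 0.45 in the first comparison and Fcer1g from -0.73 to 0.038 in the second.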
